A study of Ictidomys tridecemlineatus with 15 samples.

Results

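The MAP kinase cascade and the serine/threonine phosphatases add phosphate to proteins and take it off again, and their transcription was followed here in the liver of the 13-lined ground squirrel through hibernation. Global run-on sequencing (GRO-seq) labels, in isolated nuclei, the RNA that polymerases sitting on a gene go on to make. Its values stand for polymerases engaged on a gene, and the amounts of kinase or phosphatase RNA and protein were not measured by it. The study cites earlier work in which liver transcription nearly stopped in torpor. It proposes that initiation and termination cease there while elongation goes on very slowly. Scaling to library size hides a change in the total. Higher in the cold therefore means a larger share of a library, not a measured rise in transcription per cell. Genes were taken by name from the units that carry a single gene name: 18 kinases, whose names begin with Mapk, Map2k, Map3k or Map4k and a digit, and 21 phosphatase subunits, whose names begin with Ppp, a digit and the letter c or r. These 39 members belong to 4705 single-gene units in a table of 6324. Ppp1r15a and PPP3R1_like were left out of the set. A further 19 units join a gene of these families with an overlapping neighbor, and their counts cannot be divided. Among the genes they hold are Map2k7, Map3k2, Map3k3, Map4k3, Map4k5, Mapk11, Mapk15, Ppp1r3e, Ppp1r8, Ppp1r10, Ppp1r16a, Ppp1r27, Ppp2ca, Ppp2r2a, Ppp2r2d, Ppp2r5c, Ppp4c and Ppp6r3. The genes for the catalytic subunits of PP4 and of the alpha form of PP2A are among these, so that no values are given for them.

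All animals were laboratory-housed females, and each library came from the frozen liver of 1 animal. By the study's methods, body temperature was taken with implanted recorders or a rectal probe. Summer active animals (SA, 3 libraries) were taken in the homeothermic period before hibernation began. The other 4 groups were hibernators staged by body temperature and time: interbout aroused (IBA, 3 libraries), which had rewarmed between torpor bouts, entrance into torpor (Ent, 3 libraries), early torpor (ET, 3 libraries) and late torpor (LT, 2 libraries). SA and IBA are called warm below, and ET and LT cold. Collection season was not balanced: all ET animals came from a season that no other state shares, all LT animals from another, all IBA animals from yet another, and SA and Ent mixed the seasons of LT and IBA.

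In a MAP kinase cascade, a MAP3K, which a MAP4K may activate, phosphorylates a MAP2K, which phosphorylates a MAP kinase on its activation loop. The best known branches end in ERK, JNK and p38 and carry growth factor, cytokine and stress signals in liver. Serine/threonine phosphatases reverse such phosphorylation. A few catalytic subunits, of PP1, PP2A, calcineurin (PP3), PP4 and PP6, pair with many regulatory subunits that select the substrate. Among the regulatory subunits are those of PP1 that tether the enzyme to glycogen in hepatocytes.

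Total counts ranged from 3713883 to 8884763 per library, and no member had fewer than 35 counts in any library. Values per library are CPM, each count divided by its library size after TMM normalization, a level relative to the other units of that library, and means are given ± SD (n = 3 animals, 2 in LT). Tests are edgeR's quasi-likelihood tests with p-values adjusted over all units, and a member is called when the adjusted p is 0.001 or less, the threshold of the study. Coordinates are those of the redefined gene bodies on the HiC_Itri_2 genome. Of 16 hepatocyte markers 10 had a single-gene unit, among them Apob, Ttr and Cps1, and their summed level was 12780 to 24020 CPM in the warm libraries, 9701 to 12020 CPM in Ent and 4213 to 7946 CPM in the cold libraries. The measured endothelial markers (4 of 11, Pecam1, Stab1, Kdr and Eng) summed to 213 to 266 CPM in SA, 228 to 258 CPM in IBA, 230 to 264 CPM in Ent, 137 to 220 CPM in ET and 148 to 161 CPM in LT. The stellate marker Rgs5 lay between 32.9 and 73.0 CPM throughout. None of the listed myeloid, lymphocyte or erythroid markers had a single-gene unit. In whole liver, fewer cells of a type and less transcription per cell cannot be told apart, and the part of cell composition in the results below was not tested.

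Across the 5 states, 7 of 39 members were called (17.9%, against 26.4% of all single-gene units): the kinases Map2k2, MAP2K6_like, Mapk6 and MAPK6_G28536 and the phosphatase subunits Ppp1r3b, Ppp1r3c and Ppp2r1a. At an adjusted p of 0.05 there were 27 (69.2%, against 63.3%), namely 12 kinases and 15 phosphatase subunits. A largest difference of at least 2-fold between state means was found in 5 kinases (27.8%) and 6 phosphatase subunits (28.6%), whereas 42.6% of all single-gene units reached it.

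**Figure D1:**
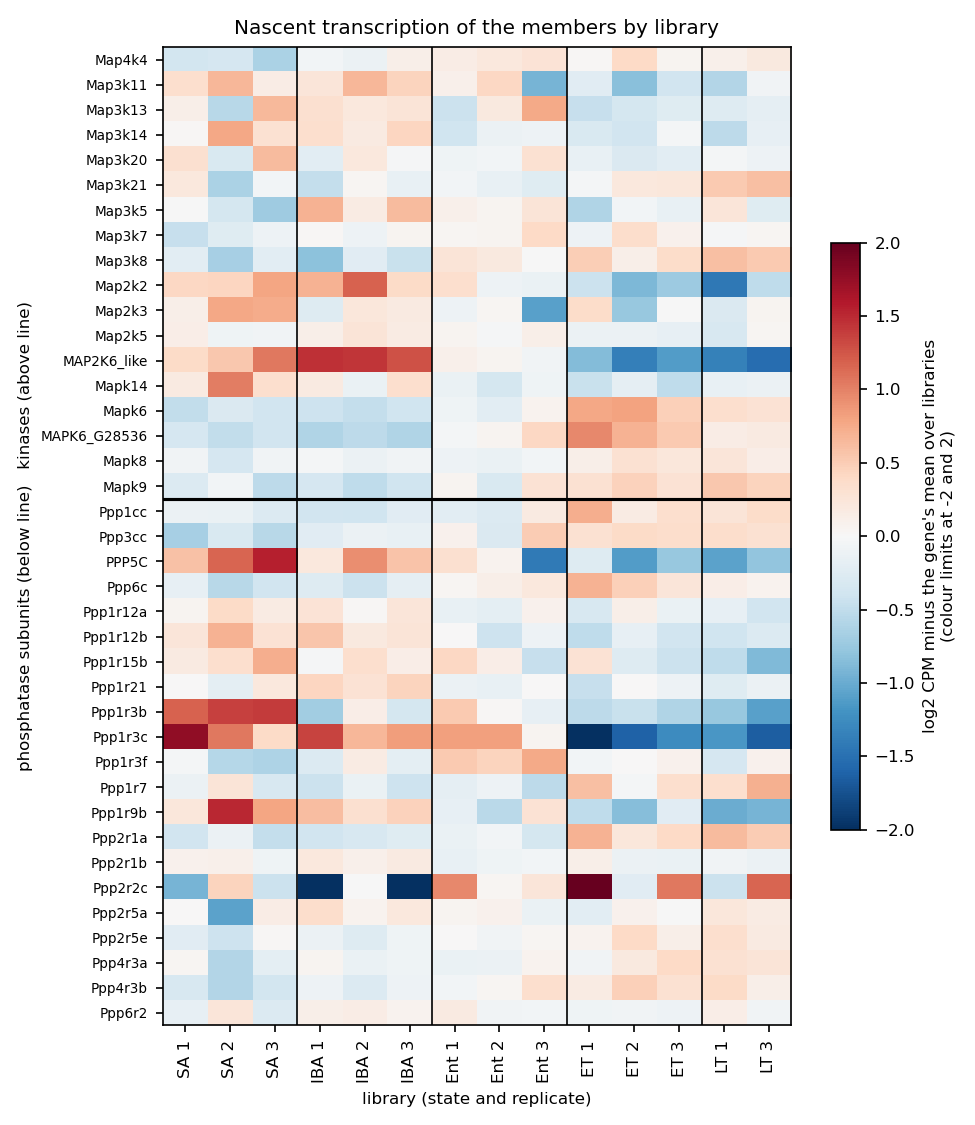
Each row is a member and each column a library, ordered by state; color gives log2 CPM minus the member's mean over the 14 libraries, with colors limited at -2 and 2. Kinases lie above the thick line and phosphatase subunits below it. MAP2K6_like and Ppp1r3c turn from red to dark blue between the warm and the cold libraries, Mapk6 and Ppp2r1a turn from blue to red, and Ppp1r3b is dark red in SA alone.

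Most calls came from setting cold against warm livers. In ET and LT together, 9 members were higher than in SA and IBA (23.1%, against 18.3% of all units) and 7 lower (17.9%, against 18.7%). The 9 were Map3k8, Mapk6, MAPK6_G28536, Mapk9, Ppp1cc, Ppp3cc, Ppp6c, Ppp2r1a and Ppp4r3b, and the 7 were Map2k2, MAP2K6_like, PPP5C, Ppp1r12b, Ppp1r3b, Ppp1r3c and Ppp1r9b. Of the kinases 4 were higher and 2 lower, and of the phosphatase subunits 5 were higher and 5 lower. At an adjusted p of 0.05, 16 members were higher (41.0%, against 30.1%) and 14 lower (35.9%, against 35.0%). The 6 kinase calls ranged from 6 to 7 in number when any 1 library was left out. The 10 phosphatase calls fell to 3 without LT replicate 1, to 4 without LT replicate 3 and to 5 without IBA replicate 2. Scaling to the uniquely mapped reads moved the median of all units by 0.23 on the log2 scale. It gave 7 kinases higher and 2 lower and 7 phosphatase subunits higher and 4 lower, with no called member changing direction. Of all 4705 single-gene units, 1203 were then higher and 603 lower, against 859 and 881 in the main fit.

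**Figure D2:**
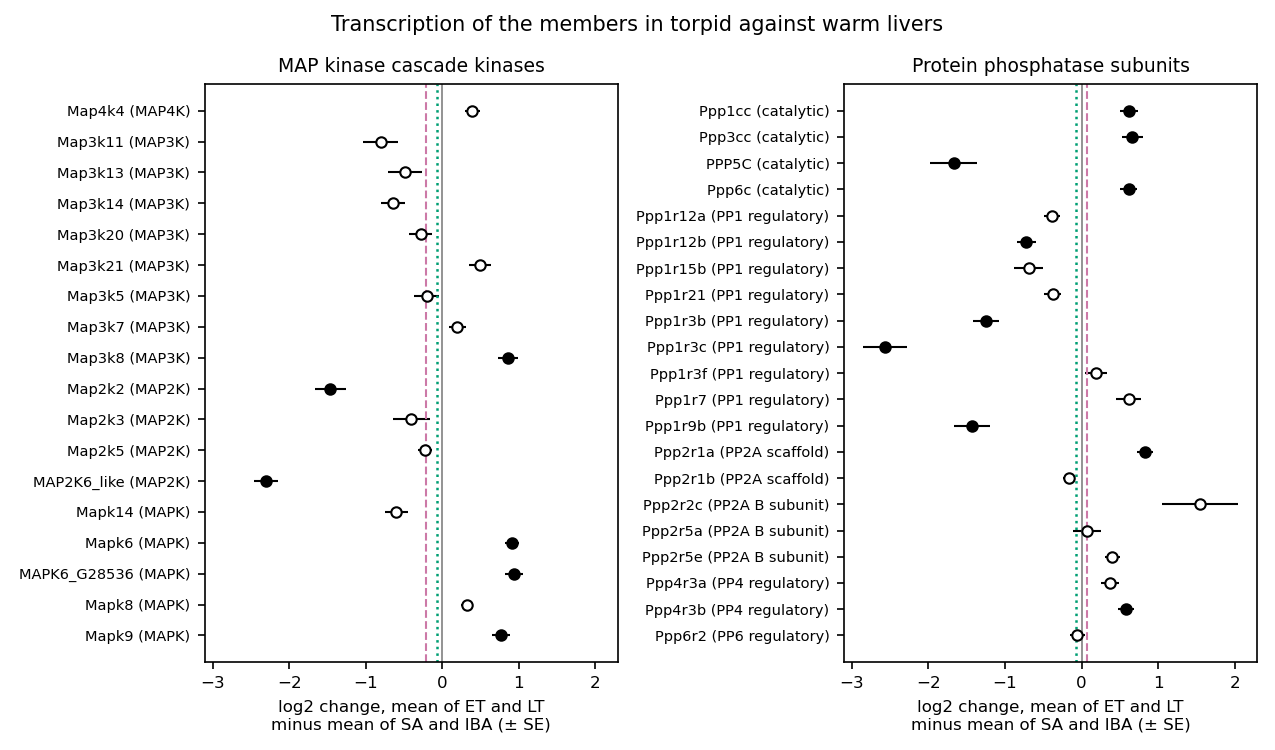
Log2 change of each member between the mean of ET and LT and the mean of SA and IBA, with its standard error as a bar; filled points have an edgeR adjusted p of 0.001 or less. The dashed line is the median of the class (-0.21 for kinases, 0.07 for phosphatase subunits) and the dotted line that of all single-gene units (-0.07). Members of both classes lie on both sides of 0.

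Of the 9 kinases at the top of the cascade, 1 was called, as higher in the cold (against 18.3% of all single-gene units). Map4k4, a MAP4K that acts upstream of JNK, had 265 ± 29.5 CPM in SA, 355 ± 30.6 in IBA, 416 ± 18.4 in Ent, 406 ± 61.9 in ET and 399.9 ± 17.2 in LT, and its cold-minus-warm log2 change was 0.39 (SE 0.10, edgeR adjusted p = 0.00408). The called one was the MAP3K Map3k8 (TPL2, which activates the MEK-ERK branch in inflammatory signaling; Itri9, 9235166 to 9262782, minus strand). It had 109, 79.2 and 108 CPM in the SA animals, 71.0, 107 and 91.6 in IBA, 150.1, 143 and 125 in Ent, 176, 136 and 161 in ET and 190.2 and 181 in LT. Every cold library and every Ent library lay above every warm library. The log2 change was 0.86 (SE 0.13, edgeR adjusted p = 7.85e-05), so that the cold level was 1.81-fold the warm one. The call held under all 22 alternatives tried (other software, scalings and filters, a replicate block, and the loss of any 1 library).

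The other MAP3Ks did not pass. Map3k5 (ASK1, which responds to oxidative stress) stood at 179 ± 43.2 CPM in SA, 321 ± 60.6 in IBA, 248 ± 17.7 in Ent, 189 ± 36.5 in ET and 227 ± 53.8 in LT. It was highest in IBA, where each library exceeded each SA library, and the SA-to-IBA log2 change of 0.84 (SE 0.21, edgeR adjusted p = 0.0391) passed at 0.05 but not at 0.001. Map3k11 (MLK3, upstream of JNK) had 78.1 ± 14.3 and 81.6 ± 11.7 CPM in the warm states and 43.2 ± 9.03 and 48.1 ± 12.0 CPM in the cold ones, with no overlap of the cold and warm libraries and a log2 change of -0.81 (SE 0.22, edgeR adjusted p = 0.00697). Map3k14 (NIK, the kinase of non-canonical NF-kappaB signaling) also had cold and warm libraries apart, between 23.6 and 39.9 CPM warm and between 16.2 and 22.7 CPM cold, with -0.64 (SE 0.16, edgeR adjusted p = 0.00321). In Map3k21 (MLK4) the LT libraries were the highest, at 127 and 134 CPM, and the change was 0.49 (SE 0.14, edgeR adjusted p = 0.00934). Map3k7 (TAK1, which relays TNF, interleukin-1 and TGF-beta signals) ranged over its state means from 68.4 CPM in SA to 91.9 CPM in Ent, Map3k20 (ZAK, a sensor of stalled ribosomes) from 234 CPM in ET to 328 CPM in SA, and Map3k13 (LZK, upstream of JNK) from 333 CPM in ET to 509 CPM in IBA. For these 3 the cold and warm libraries overlapped, and none passed at 0.05.

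At the MAP2K level the calls were falls. Map2k2 (MEK2, a direct activator of ERK; Itri2, 215458334 to 215496798, plus strand) had 85.8, 86.9 and 111 CPM in SA, 104, 145 and 83.7 CPM in IBA, 80.7, 60.0 and 58.7 CPM in Ent, 47.4, 34.4 and 38.8 CPM in ET and 23.7 and 45.1 CPM in LT. The lowest warm library had 83.7 CPM and the highest cold library 47.4 CPM, with Ent between the warm and cold means. Its cold-minus-warm log2 change was -1.46 (SE 0.20, edgeR adjusted p = 4.11e-05), so that the cold level was 0.363 of the warm one. MAP2K6_like, a unit named for its likeness to the p38 activator MAP2K6 (Itri7, 10505399 to 10575251, minus strand), had 28.2, 31.6 and 45.2 CPM in the SA animals, 60.0, 58.5 and 52.2 in IBA, 23.2, 22.5 and 20.6 in Ent, 11.9, 8.45 and 10.1 in ET and 8.47 and 7.51 in LT. Each IBA library was above each SA library, each SA library above each Ent library and each Ent library above each cold library. The unit fell by 2.31 on the log2 scale (SE 0.16, edgeR adjusted p = 3.03e-07), to 0.202 of the warm level, which was the largest change among the kinases. It was also the least transcribed member per length, at 0.397 CPM per kb over all libraries. Both calls held under all 22 alternatives.

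The other 2 MAP2Ks were not called. Map2k3, which also activates p38, had 145 ± 34.2 CPM in SA, 102 ± 18.2 in IBA, 78.9 ± 28.9 in Ent, 93.5 ± 34.0 in ET and 90.7 ± 14.7 in LT, with overlapping cold and warm libraries and a log2 change of -0.41 (SE 0.24, edgeR adjusted p = 0.153). Map2k5, the activator of ERK5, ranged between its highest state mean (449 ± 22.1 CPM, in IBA) and its lowest (359.6 ± 7.93 CPM, in ET), and its change of -0.22 (SE 0.09, edgeR adjusted p = 0.0445) passed at 0.05 alone.

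Among the MAP kinases themselves 3 of 5 units were called, each higher in the cold (against 18.3% of all single-gene units). Mapk6 (ERK3, an atypical MAP kinase whose activation loop lacks the usual dual phosphorylation motif; Itri5, 96001731 to 96031658, plus strand) had 91.3, 106 and 98.1 CPM in the SA animals, 96.9, 92.0 and 97.2 in IBA, 121, 111 and 136 in Ent, 219, 224 and 179 in ET and 162 and 158 in LT. The 14 libraries fell into ordered groups, with warm below Ent, Ent below LT and LT below ET. Its cold level was 1.88-fold the warm one, with a log2 change of 0.91 (SE 0.09, edgeR adjusted p = 3.16e-06). The unit MAPK6_G28536 (Itri5, 96034764 to 96044978, plus strand) begins 3105 nt after the end of Mapk6 on the same strand. It had 44.1, 39.3 and 42.4 CPM in SA, 36.7, 38.7 and 36.6 CPM in IBA, 54.0, 57.4 and 74.3 CPM in Ent, 108, 90.0 and 79.5 CPM in ET and 61.5 and 62.9 CPM in LT, again with every Ent and cold library above every warm library and with ET above LT. Its log2 change was 0.94 (SE 0.11, edgeR adjusted p = 1.4e-05). Whether the reads of this unit come from transcription running on from Mapk6 was not tested, and the 2 units are not independent examples.

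Mapk9 (JNK2; Itri1, 119342546 to 119392396, plus strand) had 74.2, 86.4 and 62.4 CPM in the SA animals, 70.8, 62.9 and 68.0 in IBA, 92.9, 72.7 and 110.0 in Ent, 111, 124 and 110.0 in ET and 130.4 and 122 in LT. The cold libraries stood above the warm ones, while the Ent libraries reached from inside the warm range to close to the lowest cold value. The log2 change was 0.77 (SE 0.12, edgeR adjusted p = 0.000116), or 1.7-fold. Mapk8 (JNK1; Itri1, 80565682 to 80691226, minus strand) had 219, 182 and 219 CPM in SA, 223, 212 and 220.0 CPM in IBA, 215, 209 and 222 CPM in Ent, 249, 283 and 268 CPM in ET and 273 and 253 CPM in LT. Its cold libraries also lay above all warm and Ent libraries, but by less, and the change of 0.32 (SE 0.08, edgeR adjusted p = 0.00355) did not reach 0.001. Mapk14 (p38 alpha; Itri8, 40650581 to 40722531, plus strand) had 224, 404 and 249.6 CPM in the SA animals, 225, 181 and 251 in IBA, 181, 155 and 187 in Ent, 146, 176 and 139 in ET and 179 and 184 in LT. Warm and cold libraries overlapped narrowly, SA replicate 2 stood highest, and the change of -0.60 (SE 0.15, edgeR adjusted p = 0.0043) was not called. Of the 5 MAP kinase units, 4 thus had a positive change past 0.05 and Mapk14 a negative one. Of all single-gene units 30.1% were higher and 35.0% lower at that threshold. The 4 include MAPK6_G28536, which is not independent of Mapk6.

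Of the 4 catalytic phosphatase subunits, 3 were higher and 1 lower in the cold (against 18.3% and 18.7% of all single-gene units). Ppp1cc (PP1 gamma; Itri2, 155828313 to 155852865, plus strand) had 154, 151 and 138 CPM in the SA animals, 127, 126 and 141 in IBA, 144, 137 and 188 in Ent, 273, 187 and 208 in ET and 198 and 213 in LT. All 5 cold libraries lay above the 6 warm ones, and Ent replicate 3 lay among the cold libraries. The log2 change was 0.62 (SE 0.12, edgeR adjusted p = 0.000485). Ppp3cc (the gamma catalytic subunit of calcineurin, the calcium-dependent phosphatase; Itri17, 12287546 to 12353857, minus strand) had 35.7, 45.7 and 38.4 CPM in SA, 48.3, 51.8 and 50.8 CPM in IBA, 59.7, 46.3 and 80.2 CPM in Ent, 69.5, 73.3 and 71.7 CPM in ET and 72.0 and 69.2 CPM in LT. The cold libraries were tightly grouped above the warm ones, and Ent reached from inside the warm range to above the cold one. Its change was 0.67 (SE 0.13, edgeR adjusted p = 0.000689). Ppp6c (the PP6 catalytic subunit; Itri3, 193512537 to 193552370, minus strand) had 77.6, 58.9 and 66.8 CPM in the SA animals, 73.0, 64.2 and 76.3 in IBA, 89.4, 94.0 and 101 in Ent, 141, 120.4 and 103 in ET and 95.1 and 91.2 in LT. Ent and LT overlapped, above the warm libraries and below ET. Its change was 0.61 (SE 0.11, edgeR adjusted p = 0.00029).

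PPP5C, which encodes a phosphatase that binds the chaperone Hsp90 and acts on steroid receptor complexes (Itri16, 18707426 to 18728705, plus strand), went the other way, with 46.8, 69.9 and 90.9 CPM in the SA animals, 35.8, 58.9 and 46.0 in IBA, 38.7, 32.7 and 11.7 in Ent, 25.9, 14.3 and 18.4 in ET and 14.8 and 18.0 in LT. The lowest warm library still exceeded the highest cold one, although the SA libraries differed from each other by more than the cold libraries did. The cold level was 0.314 of the warm one, a log2 change of -1.67 (SE 0.30, edgeR adjusted p = 0.000377). These catalytic calls were among the less stable ones: Ppp3cc stayed past 0.001 in 10 of 22 alternatives, Ppp1cc in 14, PPP5C in 15 and Ppp6c in 19. Leaving out LT replicate 1 or LT replicate 3 ended the call of each, as did IBA replicate 2. Ppp1cc and Ppp3cc were also lost without either other IBA library and without SA replicate 1 or 3, Ppp3cc without any ET library or Ent replicate 1, PPP5C without ET replicate 2, ET replicate 3 or SA replicate 3, and Ppp1cc, Ppp3cc and PPP5C with the replicate block.

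**Figure D3:**
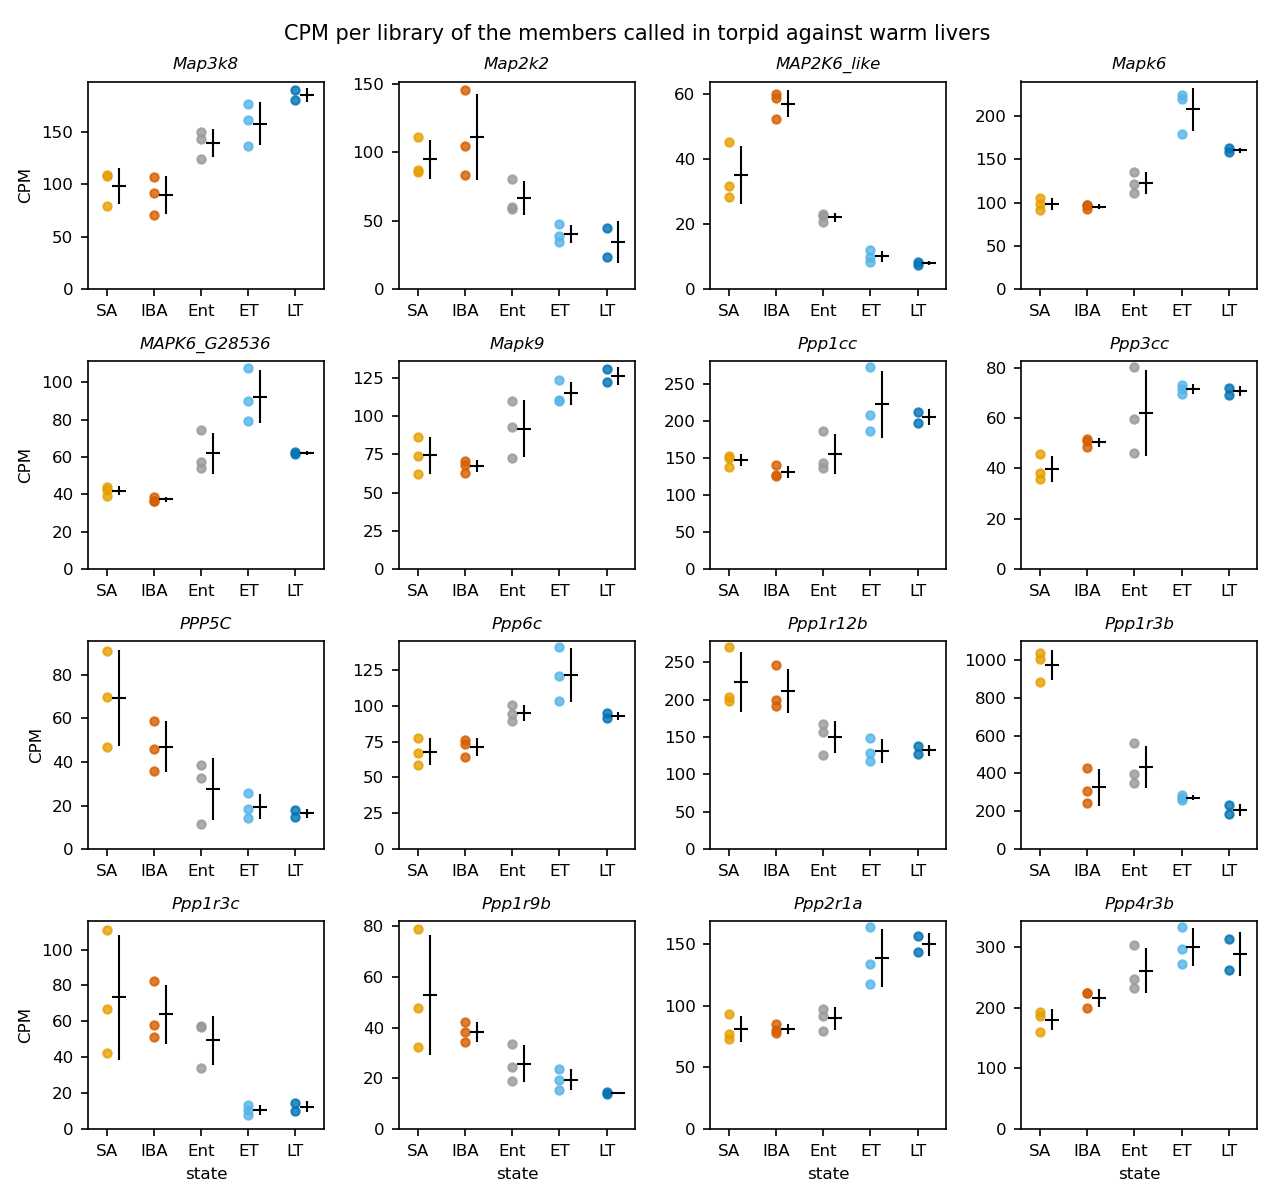
CPM per library of the 16 members called in cold against warm livers, one panel each, with a point per library by state and the mean ± SD beside it (3 libraries per state, 2 in LT); the axes start at 0. The Ent mean lies between the warm and cold means in all 16 panels.

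The regulatory subunits of PP1 held 4 of the 5 phosphatase calls toward lower transcription in the cold and none toward higher, among 9 measured. Of all single-gene units 18.7% were lower and 18.3% higher. Ppp1r3c (PTG, which brings PP1 to glycogen so that glycogen synthase is activated; Itri1, 41298171 to 41304142, plus strand) had 111, 67.1 and 42.3 CPM in the SA animals, 82.4, 51.2 and 58.1 in IBA, 57.0, 57.3 and 33.8 in Ent, 7.66, 10.6 and 13.6 in ET and 14.5 and 10.3 in LT. Of the Ent libraries 2 lay inside the warm range and 1 below it, and each cold library had less than the lowest Ent library. The unit fell by 2.57 on the log2 scale (SE 0.29, edgeR adjusted p = 7.34e-06), to 0.168 of the warm level, the largest fall among the members.

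Ppp1r3b (GL, the glycogen-targeting subunit typical of liver; Itri17, 43750753 to 43790775, minus strand) had 886, 1004 and 1035 CPM in SA, 242, 429 and 307 CPM in IBA, 559, 396 and 347 CPM in Ent, 273, 288 and 257 CPM in ET and 231 and 184 CPM in LT. SA stood above every other state, and IBA replicate 1 lay within the cold range, so that warm and cold ranges overlapped. From SA to IBA, both warm, its log2 change was -1.58 (SE 0.22, edgeR adjusted p = 0.00294), which passed at 0.05 and not at 0.001. The cold-minus-warm change was -1.25 (SE 0.17, edgeR adjusted p = 3.15e-05) and IBA to LT gave -0.65 (SE 0.24, edgeR adjusted p = 0.0405). Ppp1r3b was the most transcribed member per length, at 11.5 CPM per kb, against medians in the same unit of 2.24 for the phosphatase subunits, 1.89 for the kinases and 2.16 for all single-gene units. The third glycogen-targeting subunit measured, Ppp1r3f, had another course: 31.2 ± 7.46 CPM in SA, 38.2 ± 6.43 in IBA, 60.8 ± 6.92 in Ent, 41.1 ± 2.05 in ET and 37.8 ± 7.75 in LT. All 3 Ent libraries exceeded all others, the IBA-to-Ent change of 0.67 (SE 0.19, edgeR adjusted p = 0.0345) and the Ent-to-ET change of -0.57 (SE 0.19, edgeR adjusted p = 0.0429) passed at 0.05 only, and cold against warm it was 0.19 (SE 0.15, edgeR adjusted p = 0.259).

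The other 2 PP1 regulatory subunits called were Ppp1r12b and Ppp1r9b. Ppp1r12b (MYPT2, a myosin phosphatase targeting subunit; Itri9, 72757938 to 72973563, minus strand) had 198, 270.4 and 204 CPM in the SA animals, 246, 191 and 199.7 in IBA, 167, 126 and 156 in Ent, 118, 149 and 129 in ET and 127 and 138 in LT. The warm libraries were the 6 highest, and Ent overlapped the cold range. Its change was -0.72 (SE 0.12, edgeR adjusted p = 0.000239), and it was not called when libraries were scaled to uniquely mapped reads. Ppp1r9b (spinophilin, an actin-binding PP1 subunit; Itri7, 25558344 to 25577250, minus strand) had 32.3, 78.7 and 47.6 CPM in SA, 42.3, 34.5 and 38.2 CPM in IBA, 24.6, 19.0 and 33.6 CPM in Ent, 19.4, 15.3 and 23.6 CPM in ET and 13.9 and 14.4 CPM in LT. Cold lay below warm in every library, LT below ET, and SA replicate 2 was well above the other SA libraries. The change was -1.43 (SE 0.23, edgeR adjusted p = 0.000158). Both calls ended without LT replicate 1 and without LT replicate 3.

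The PP1 subunits that were not called were Ppp1r12a, Ppp1r15b, Ppp1r21, Ppp1r7 and Ppp1r3f. Ppp1r12a (MYPT1, the paralog of MYPT2) had 294 ± 35.1 CPM in SA and 210.3 ± 21.8 CPM in LT and a change of -0.39 (SE 0.11, edgeR adjusted p = 0.00796). Ppp1r15b (CReP, the constitutive subunit for the initiation factor eIF2 alpha) had 72.8 ± 14.8 CPM in SA and 33.5 ± 6.31 CPM in LT and a change of -0.69 (SE 0.19, edgeR adjusted p = 0.00653). Ppp1r21, a protein of endosomes in spite of its name, was highest in IBA, at 69.1 ± 4.33 CPM, with -0.38 (SE 0.11, edgeR adjusted p = 0.0113). Ppp1r7 (SDS22, a subunit of newly made PP1) was the only one of these with a positive change past 0.05, 0.61 (SE 0.16, edgeR adjusted p = 0.00444), from 25.6 ± 2.97 CPM in IBA to 46.5 ± 8.43 CPM in LT. In all of these, cold and warm libraries overlapped.

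The scaffold and regulatory subunits of PP2A, PP4 and PP6 gave 2 calls, both higher in the cold (against 18.3% of all single-gene units). Ppp2r1a (the alpha scaffold on which PP2A assembles; Itri16, 3866861 to 3896513, plus strand) had 77.1, 93.0 and 73.0 CPM in the SA animals, 77.6, 80.7 and 85.4 in IBA, 92.0, 97.7 and 79.5 in Ent, 164, 118 and 134 in ET and 156 and 143 in LT. Warm and Ent libraries overlapped, and all cold libraries lay above both. The cold level was 1.78-fold the warm one, with a log2 change of 0.83 (SE 0.11, edgeR adjusted p = 3.02e-05). Its paralog Ppp2r1b (the beta scaffold) had 131 ± 9.10 CPM in SA, 144 ± 5.85 in IBA, 120.2 ± 3.83 in Ent, 125 ± 12.1 in ET and 120.0 ± 2.62 in LT, with a cold-minus-warm change of -0.17 (SE 0.08, edgeR adjusted p = 0.0825). Ppp2r1b starts 739 nt behind Alg9 on the same strand. Ppp4r3b (a regulatory subunit of PP4; Itri12, 26589431 to 26657554, plus strand) had 193, 160.1 and 186 CPM in SA, 225, 199 and 223 CPM in IBA, 232, 247 and 303 CPM in Ent, 271, 333 and 296 CPM in ET and 313 and 262 CPM in LT. The cold libraries exceeded the warm ones, with Ent in between and overlapping the cold range. Its change was 0.58 (SE 0.10, edgeR adjusted p = 0.000334), and the call ended without IBA replicate 2, without LT replicate 1 and with the replicate block. It lies 7567 nt behind Pnpt1 on the same strand. Ppp4r3b and MAPK6_G28536 were the 2 called members whose nearest upstream unit lay on the same strand within 20000 nt. Same-strand units behind a nearer unit of the other strand were not looked for. The uncalled Map2k5, Ppp1r15b, Ppp1r21 and Ppp2r1b were the others, of 39, and read-through from these neighbors was not tested.

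The remaining subunits were not called. Ppp4r3a, the other PP4 subunit of this kind, had 278 ± 59.6 CPM in SA and 395 ± 8.30 CPM in LT, with 0.37 (SE 0.12, edgeR adjusted p = 0.0163). Ppp2r5e, a B56 subunit that directs PP2A to its substrates, had cold and warm libraries apart, between 213 and 287 CPM warm and between 297 and 374 CPM cold, with 0.40 (SE 0.10, edgeR adjusted p = 0.0034). Ppp2r5a, another B56 subunit, showed 0.07 (SE 0.18, edgeR adjusted p = 0.741), and Ppp6r2, a PP6 regulatory subunit, -0.05 (SE 0.10, edgeR adjusted p = 0.667), both with overlapping libraries. Ppp2r2c, a PP2A B subunit best known from brain, was uneven within states: its ET libraries had 187, 35.4 and 86.2 CPM and its IBA libraries 9.95, 41.4 and 10.4 CPM, and its cold-minus-warm change of 1.55 (SE 0.50, edgeR adjusted p = 0.0157) carried the largest standard error of all members.

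Read by step through the torpor bout, few single transitions passed. At an adjusted p of 0.001, 0 of 39 members were called by edgeR between SA and IBA (0.0213% of all units), between IBA and Ent (0.0425%), between Ent and ET (2.3%) or between ET and LT (0.0%). At an unadjusted p of 0.05, 5, 12, 12 and 3 of 39 members passed in these 4 steps, against 1103, 1570, 1934 and 436 of all 4705 single-gene units. DESeq2 at an adjusted p of 0.001 called 1, 2, 4 and 0, for which no share over all units is given here. At an edgeR adjusted p of 0.05 there were 2 members from SA to IBA (5.13%, against 5.57% of all units), which were Map3k5 and Ppp1r3b. From IBA to Ent there were 5 (12.8%, against 16.7%): Map3k8, MAPK6_G28536 and Ppp1r3f toward higher and MAP2K6_like and Ppp1r21 toward lower transcription. From Ent to ET there were 9 (23.1%, against 29.2%): Mapk6, MAPK6_G28536, Mapk8, Ppp1cc and Ppp2r1a toward higher and MAP2K6_like, Ppp1r3b, Ppp1r3c and Ppp1r3f toward lower. The step with the largest single change was that of Ppp1r3c from Ent to ET, -2.22 (SE 0.37, edgeR adjusted p = 0.00133), whereas MAP2K6_like changed in 2 successive steps, by -1.36 (SE 0.19, edgeR adjusted p = 0.00317) and then -1.12 (SE 0.20, edgeR adjusted p = 0.00199), each past 0.05 and not 0.001.

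From IBA to LT, the warm and cold ends of the bout, 6 members were called. Of these 3 were higher in LT (7.69%, against 9.46% of all units): Map3k8 changed by 1.04 (SE 0.19, edgeR adjusted p = 0.000725), Mapk6 by 0.75 (SE 0.13, edgeR adjusted p = 0.00066) and Ppp2r1a by 0.88 (SE 0.16, edgeR adjusted p = 0.000765). The other 3 were lower (7.69%, against 8.18%): Map2k2 changed by -1.69 (SE 0.31, edgeR adjusted p = 0.000698), MAP2K6_like by -2.83 (SE 0.25, edgeR adjusted p = 9.07e-06) and Ppp1r3c by -2.36 (SE 0.43, edgeR adjusted p = 0.000687). At an adjusted p of 0.05, 21 members passed (53.8%, against 50.7%). The count of 6 was not stable: it was 1 without IBA replicate 1 or LT replicate 1, 2 without IBA replicate 2, IBA replicate 3, Ent replicate 1 or LT replicate 3, and 3 without Ent replicate 2 or ET replicate 3. The Ent and ET libraries are outside this comparison and enter only the shared fit. All of these calls but MAP2K6_like had edgeR adjusted p between 0.00066 and 0.000765, near the threshold. With season in the fit, the calls were MAP2K6_like (-2.68, SE 0.32, edgeR adjusted p = 0.00022) and Ppp1r3c (-3.25, SE 0.41, edgeR adjusted p = 0.000273).

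Season could be held constant between some libraries of Ent and LT and of SA and IBA. Ent replicates 1 and 2 and both LT libraries share a season. The LT libraries are those that entered the cold-against-warm calls, so the direction of these values is not independent of the calls. The log2 change within that season was -1.52 for MAP2K6_like, -2.20 for Ppp1r3c, -1.03 for Map2k2, 0.61 for Mapk9, 0.47 for Mapk6 and 0.66 for Ppp2r1a. It was small in other called members: 0.16 for MAPK6_G28536, 0.02 for Ppp6c and -0.15 for Ppp1r12b. In Ppp6c and Ppp1r12b the Ent and LT libraries of that season overlapped, and in 14 of the 16 called members they were apart. The share apart over all single-gene units was not counted. With 2 libraries on each side such separation can arise without a change, so no conclusion is drawn from this count. In the other shared season, SA replicates 2 and 3 and the 3 IBA libraries gave 1.03 for Map3k5 and -1.65 for Ppp1r3b, with the 2 states apart in both. With 2 or 3 animals on each side these are values without a test, and season and state cannot be told apart in any comparison with ET. Over all members, warm and cold libraries did not overlap in 19 (48.7%, against 40.5% of all single-gene units).

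Neither class moved one way as a whole. The median cold-minus-warm log2 change was -0.21 over the 18 kinases and 0.07 over the 21 phosphatase subunits, against -0.07 over all single-gene units. Scaled to uniquely mapped reads, the medians became 0.01 and 0.30, against 0.16 for all units, so that the sign of the kinase median depends on the scaling. By role, MAP kinases gave 3 higher and 0 lower of 5, MAP2Ks 0 higher and 2 lower of 4, catalytic phosphatase subunits 3 higher and 1 lower of 4, and PP1 regulatory subunits 0 higher and 4 lower of 9, where 18.3% of all units were higher and 18.7% lower. The 3 MAP kinase units include MAPK6_G28536, which is not independent of Mapk6. No test was made between classes or roles. In single libraries the median over a class of log2 CPM minus each gene's mean lay between -0.26 and 0.14 for the kinases, between -0.09 and 0.10 for the phosphatase subunits, and between -0.05 and 0.04 for all units.

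**Figure D4:**
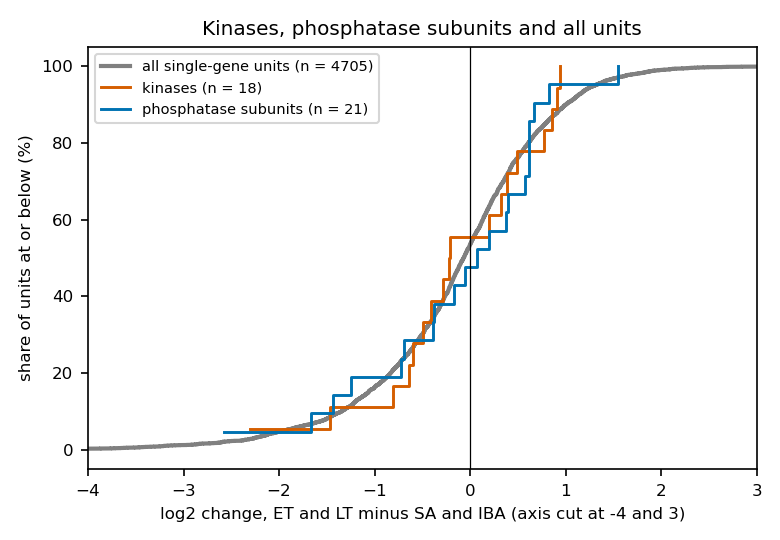
Share of units (percent) at or below each cold-minus-warm log2 change, for kinases, phosphatase subunits and all 4705 single-gene units. Both class curves run close to the gray curve of all units, with medians of -0.21, 0.07 and -0.07.

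Genes that feed or read these cascades were counted from lists. The dual-specificity phosphatases, several of which remove both phosphates from the activation loop of MAP kinases, had 9 of 22 listed genes with a unit, of which 0 were higher and 4 lower in the cold at an adjusted p of 0.001 (against 18.3% and 18.7% of all units), with a median log2 change of -1.05. With uniquely mapped reads as library size 1 was higher and 3 lower and the median was -0.82, and without LT replicate 1 or LT replicate 3 the lower ones were 2. Dusp6, which acts on ERK, had 116 ± 23.7 CPM in SA, 176 ± 31.2 in IBA, 74.9 ± 8.63 in Ent, 17.0 ± 7.29 in ET and 20.9 ± 5.76 in LT, and its change was -2.92 (SE 0.22, edgeR adjusted p = 5.01e-07). Dusp16, which acts on JNK and p38, went from 231 ± 11.9 CPM in SA to 115 ± 16.3 CPM in Ent and 99.6 ± 5.73 CPM in LT, with -1.05 (SE 0.09, edgeR adjusted p = 1.11e-06). The other 2 lower ones, named after their values were seen, were Dusp10 and Dusp22. In the same animals Map2k2 and Dusp6, the activator and a phosphatase of ERK, were thus both lower in the cold.

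Among kinases, factors and decay proteins downstream of MAP kinases, 14 of 32 listed genes had a unit, 2 higher and 4 lower (against 18.3% and 18.7% of all units). Without LT replicate 1 or LT replicate 3 there were 1 higher and 2 lower, and without IBA replicate 3 there were 1 higher and 3 lower. Mapkapk5, a kinase that binds ERK3, changed by 0.95 (SE 0.09, edgeR adjusted p = 1.72e-06), from 45.9 ± 0.506 CPM in IBA to 94.2 ± 12.0 CPM in LT. Zfp36l2 and Zfp36l1, RNA-binding proteins that speed the decay of AU-rich mRNAs, changed by -2.82 (SE 0.21, edgeR adjusted p = 5.01e-07) and -2.37 (SE 0.21, edgeR adjusted p = 1.57e-06). Ets2 was the other higher gene, and Elk3 and Atf7 the other lower ones, all transcription factors and named after their values were seen. Upstream, among receptors, adaptors and small GTPases, 20 of 38 had a unit, 2 higher and 3 lower (against 18.3% and 18.7% of all units). The lower genes were 0 without LT replicate 1 or LT replicate 3, 1 without Ent replicate 2, IBA replicate 2 or IBA replicate 3, 5 without Ent replicate 3 and 7 under DESeq2. Traf6, the ubiquitin ligase that activates TAK1, changed by 1.27 (SE 0.15, edgeR adjusted p = 1.46e-05), and Ptpn11 (SHP2, which couples receptors to RAS) by 1.01 (SE 0.15, edgeR adjusted p = 6.7e-05). The 3 lower genes, named after their values were seen, were Gadd45g, Spry2 and Kdr, of which Kdr is an endothelial gene.

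Of the RAF-level kinases and scaffolds, 11 of 28 had a unit, 2 higher and 1 lower (against 18.3% and 18.7% of all units). The lower genes were 2 without LT replicate 3 or SA replicate 2 and 4 under DESeq2. Lamtor3 (MP1, a scaffold for MEK1 and ERK) went from 44.8 ± 3.92 CPM in IBA to 117 ± 22.0 CPM in ET and gave 1.35 (SE 0.14, edgeR adjusted p = 4.74e-06), Mapkbp1, a JNK-binding protein, gave 0.77 (SE 0.11, edgeR adjusted p = 7.16e-05), and Mink1, a MAP4K-like kinase, gave -0.81 (SE 0.11, edgeR adjusted p = 3.21e-05). Of other phosphatases and phosphatase partners, 14 of 48 had a unit, 3 higher and 1 lower (against 18.3% and 18.7% of all units). With the replicate block 2 were higher. The same held without LT replicate 1 or 3, IBA replicate 1 or 2, SA replicate 1 or 3, or ET replicate 1 or 3. Under DESeq2, and without ET replicate 2 or SA replicate 2, 4 were higher. Igbp1 (alpha4, which binds the PP2A, PP4 and PP6 catalytic subunits) changed by 0.66 (SE 0.10, edgeR adjusted p = 0.000111), Tox4, a partner of PP1 in chromatin, by 0.92 (SE 0.14, edgeR adjusted p = 0.000124), and Anp32a, an inhibitor of PP2A, by -1.0 (SE 0.14, edgeR adjusted p = 5.5e-05). With uniquely mapped reads as library size the higher and lower genes were 2 and 3 downstream, 2 and 1 upstream, 2 and 1 at the RAF level and 4 and 1 among the other phosphatases and partners. Over all 4705 single-gene units they were then 1203 and 603. Genes of these lists whose units are merged with a neighbor were not counted.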

How the data were processed

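GRO-seq reads from liver nuclei of 14 animals were used. The run-on was made under the same conditions for all nuclei, so that values reflect engaged polymerases and not their speed in the cold animal. After trimming and alignment to HiC_Itri_2, the authors drew new gene bodies from the reads with fstitch, dropped the first 500 nt of each, joined genes that overlap and ran featureCounts. The deposited values are raw counts. LT replicate 2 has no column and was not analysed here.

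All 6324 units were fitted in edgeR 4.0.16 (R 4.3.3) with TMM normalization and a quasi-likelihood model of the 5 states, without a filter, with Benjamini-Hochberg adjustment across the whole table. Cold against warm is the mean of ET and LT minus the mean of SA and IBA. Each SE given with an edgeR change was derived from its test. It is the absolute log2 change divided by the square root of the quasi-likelihood F statistic. A prior count of 2 entered the log2 CPM. The smallest total, 3713883 counts, and groups of 2 or 3 animals set the precision. The fit was repeated with DESeq2 1.42.0, with limma-voom (limma 3.58.1), and with upper-quartile and size factor normalization, the uniquely mapped reads of the study's sequencing metadata as library size, a minimum of 10 counts in every library, single-gene units alone, a replicate block, season as a covariate, an adjusted p of 0.05, a 2-fold minimum and each library left out. The steps were tested on simulated data. Every member is named, with values per library for those called and for every MAP kinase and catalytic subunit, and from each list the 3 called genes with the smallest 5-state p. Members and lists were chosen with earlier results of these data known. Of the members 37 matched a RefSeq symbol (assembly mIctTri1.hap1, used for names only). A few genes and 1 marker list are not reported here. Tables and figures were made with Python 3.11.15.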

Additional observations from a re-analysis of the deposited data

How the results depend on the processing

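Under DESeq2 the 5-state calls were 9 kinases and 11 phosphatase subunits, the cold-against-warm kinase calls 10, and the calls from SA to IBA, IBA to Ent and Ent to ET 1, 2 and 4. At an adjusted p of 0.05 the same counts were 12, 15, 13, 2, 5 and 9, with 17 phosphatase subunits cold against warm and 21 members from IBA to LT. A 2-fold minimum left 2 kinases and 4 phosphatase subunits cold against warm. No share over all units is given for these 2-fold counts or for the 5-state and step counts under DESeq2. These counts are therefore not read as results about the members. Cold against warm, DESeq2 called 1121 of all 4705 single-gene units higher and 1178 lower. Among the members it called 6 kinases higher and 4 lower and 7 phosphatase subunits higher and 5 lower. With the uniquely mapped reads as library size there were 6 phosphatase subunits across the 5 states and 1 member from Ent to ET. For these counts too no share over all units is given. The class medians became 0.013 and 0.30 with that library size. Map3k5 (0.02), Map2k5 (0.006), Ppp2r1b (0.056) and Ppp6r2 (0.173) changed sign there. Without SA replicate 2 so did Ppp2r5a (-0.074) and Ppp6r2 (0.03), whose values with 1 library left out ran from -0.074 to 0.182 and from -0.11 to 0.03. With a replicate block, the phosphatase subunits cold against warm were 6 and the members from IBA to LT 2, as they were with season in the fit. No pairing of animals by replicate number was seen. Deviations from the state means correlated above 0.1 in 6 of 26 same-numbered pairs and in 13 of 52 other-numbered pairs. The deviations of the 2 LT libraries mirror each other.

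Leaving out each library in turn gave 3 to 4 kinases and 2 to 4 phosphatase subunits across the 5 states, 6 to 7 and 3 to 10 cold against warm, 0 from SA to IBA, IBA to Ent and ET to LT, 0 to 1 from Ent to ET (1 without SA replicate 1 or SA replicate 3) and 1 to 7 from IBA to LT. The medians ran from -0.24 to -0.15 for kinases and from 0.03 to 0.14 for phosphatase subunits. The cause of these differences was not tested. Over all members and alternatives of the cold-against-warm change, 802 values kept direction and side of the threshold, 38 lost the call, 12 gained it and 6 changed sign. A season covariate could not be fitted to comparisons with ET.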
